A study of Mus musculus with 4 samples.

Results

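The 10 genes described here are predicted or little-studied protein-coding genes of mouse that belong to multicopy families and are known from the 2-cell program. They were taken by name from a table of 55353 gene symbols, and all 10 names were found. The names were chosen because these genes were high in the cells labelled knockout in these same libraries, so the difference between the groups in these genes is a description and carries no test. They are Gm5662, Gm2022, Gm8300, Gm4027, Gm2016, Gm21319, Gm4340, Gm20767, Gm21761 and D13Ertd608e.

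RNA was measured in E14 mouse embryonic stem cells, a feeder-independent line (strain label 12910la) kept here on gelatin in medium with serum and the cytokine LIF. The groups were 2 libraries of Ssrp1 KO cells, in which Cas9 and a guide RNA were used against Ssrp1, and 2 libraries of wild-type cells, called control here. The study asked how the transcriptome changes when Ssrp1 is lost. The labels also mention transfection of wild-type cells with a pSuper puro vector for Usp7 shRNA followed by puromycin, and do not say whether these controls received it. Nor do they say how many knockout clones were used or whether replicate libraries stem from different cultures, so that p-values may measure technical spread only.

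Cells of the 2-cell embryo switch on a set of genes at the onset of zygotic transcription, and a rare fraction of cultured embryonic stem cells re-enters a similar program, called the 2-cell-like state. Many genes of this program are tandem copies, and many of their transcripts start in long terminal repeats of the endogenous retrovirus MERVL, which act as alternative promoters. Ssrp1 is, with Supt16, a subunit of the histone chaperone FACT, which takes nucleosomes apart and rebuilds them as polymerases pass.

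By protein sequence the 10 genes fall into 3 families, each on 1 chromosome. Positions, transcripts and coding sequences are from GENCODE M21 on mm10, the build named by the submitters. Gm5662 (12:88270640-88274500), Gm2022 (12:87895370-87895804), Gm8300 (12:87514316-87518266), Gm4027 (12:87618869-87622955), Gm2016 (12:87874072-87877859) and Gm21319 (12:87772425-87775755) each encode a protein of 144 residues related to eIF1A, the initiation factor that helps the small ribosomal subunit scan for a start codon. Each has 1 annotated transcript of 2 exons, except Gm2022, whose single exon of 435 bases holds only the coding sequence. Gm20767 (13:120140246-120155335), Gm21761 (13:119912095-119929272) and D13Ertd608e (13:119836006-119846570) encode proteins of 169, 171 and 151 residues of the Tcstv family. Tcstv1 and Tcstv3, which name that family, are known from 2-cell embryos and have been linked to telomere lengthening in mouse embryonic stem cells. Gm4340 (10:104194042-104196522) encodes 268 residues related to Alyref, an adaptor that hands spliced mRNA to the nuclear export machinery. No exon base of any of the 10 genes is annotated to another gene.

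**Figure D1:**
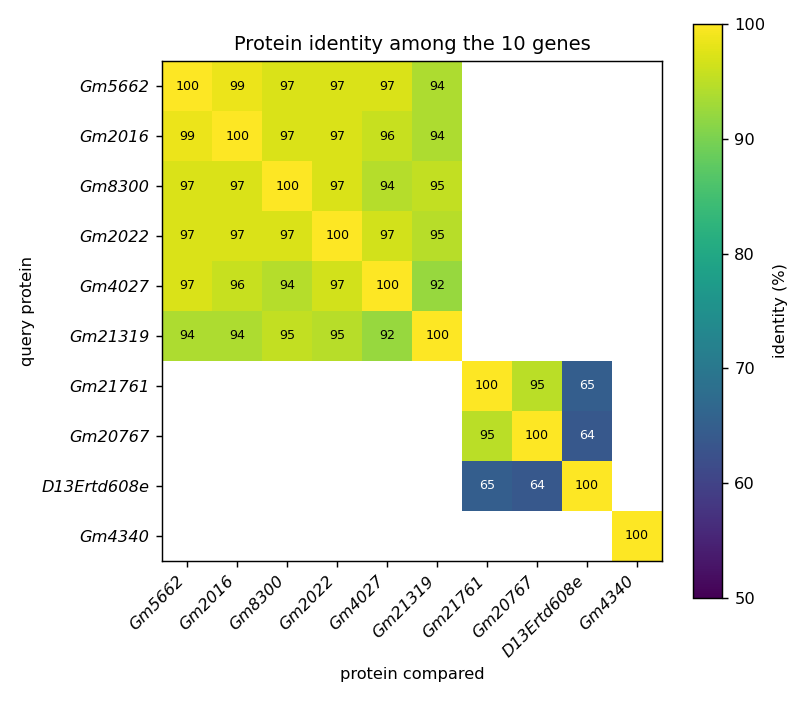
Protein identity in percent between the 10 genes, with the query protein on the y axis and the protein it was compared with on the x axis; white cells had no match. 3 blocks are seen: the 6 eIF1A-like proteins, the 3 Tcstv-like proteins, of which Gm21761 and Gm20767 are the closer pair, and Gm4340 alone.

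The coding sequences of the eIF1A-like genes show how little separates the copies. Over 432 coding bases, 23 positions vary among the 6 genes, and any 2 of them differ at 4 to 15 bases. The stretch from base 232 to base 291 of the coding sequence, counted from the A of the start codon, holds 8 of these variable positions, which are in capitals:

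Gm5662: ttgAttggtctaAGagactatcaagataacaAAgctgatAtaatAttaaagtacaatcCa

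Gm2016: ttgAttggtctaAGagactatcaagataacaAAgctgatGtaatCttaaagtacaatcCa

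Gm2022: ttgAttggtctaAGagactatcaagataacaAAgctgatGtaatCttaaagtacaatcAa

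Gm8300: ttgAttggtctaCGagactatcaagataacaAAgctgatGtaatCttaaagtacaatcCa

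Gm4027: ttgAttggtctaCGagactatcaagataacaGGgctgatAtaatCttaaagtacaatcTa

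Gm21319: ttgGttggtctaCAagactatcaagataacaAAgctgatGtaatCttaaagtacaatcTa

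The first 60 coding bases of the 2 closest Tcstv-like genes differ at 3 bases, in capitals, and are shown because reads from such stretches are hard to assign to 1 gene:

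Gm21761: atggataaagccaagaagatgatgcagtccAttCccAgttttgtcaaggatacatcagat

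Gm20767: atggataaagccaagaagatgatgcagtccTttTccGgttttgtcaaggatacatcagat

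Gm4340 has a feature its relative Alyref lacks. Bases 646 to 744 of its 804 coding bases read as an unbroken run of 33 residues, 27 glutamines and 6 lysines, with the lysine codons in capitals below. The longest such run in Alyref was 3 residues.

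Gm4340: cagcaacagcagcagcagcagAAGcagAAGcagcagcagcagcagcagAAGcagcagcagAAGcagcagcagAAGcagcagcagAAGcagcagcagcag

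Near the 5′ end of the transcripts, genes of different families resembled each other. The annotated transcripts Gm4340-203, Gm21761-202 and Gm20767-202 carry a stretch of 30 bases, beginning within the first 5 bases, that differs at 2 positions between Gm4340 and the 2 Tcstv-like genes. The capitals mark the bases that differ from Gm4340:

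Gm4340: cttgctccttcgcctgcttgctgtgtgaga

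Gm21761: cttgctccttcTcctgcttgctgCgtgaga

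Gm20767: cttgctccttcTcctgcttgctgCgtgaga

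4 of the eIF1A-like genes share another start, with capitals for bases that differ from Gm5662:

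Gm5662: agtagtctcatcttgctgccttcactttgg

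Gm2016: agtagtctcatcttgctgccttcactttgg

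Gm8300: agtagtctcatcttgctgccttTactttgg

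Gm4027: agtagtctcatctCgctgccttTacCttgg

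Whether these starts lie in a repeat was not looked up, since no repeat annotation was used here.

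The 4 libraries were of like depth, with 22611434 to 25344190 counts each, so that 3 counts in a library equal 0.123 to 0.136 CPM. CPM are counts scaled to library size, here with TMM-scaled library sizes. The targeted transcript did not fall: Ssrp1 had 305.5 and 327.3 CPM in the libraries labelled knockout and 282.2 and 305.7 CPM in control (log2 fold change 0.11 ± 0.06 SE, adjusted p = 0.226, edgeR's quasi-likelihood test). The counts do not show whether the protein was lost, and every direction below is that of the libraries labelled knockout. Transcripts counted as ribosomal-RNA-like took 4.64% to 6.30% of counts in the libraries labelled knockout and 9.72% to 10.3% in control. Of the embryonic stem cell markers, 2 of 8 were called higher and 5 lower, with summed levels of 2965 and 2966 CPM in the libraries labelled knockout and 3422 and 3517 CPM in control, none at 0. Primitive endoderm markers summed to 24.2 and 27.3 CPM in the libraries labelled knockout and 6.53 and 5.80 CPM in control, with 4 of 5 called higher and none at 0. Fibroblast markers summed to 87.2 and 87.6 CPM against 129.8 and 129.5 CPM in control, with Postn at 0 in all libraries. Of the 3 fibroblast markers tested, 0 were called higher and 1 lower. Trophoblast markers summed to 9.58 and 9.71 CPM against 6.80 and 7.31 CPM in control, with 0 of the 2 tested called. Germ cell markers summed to 60.4 and 55.9 CPM against 48.7 and 47.7 CPM in control, with 2 of 4 called higher and 1 lower. Of all genes tested, 16.5% were called higher and 17.2% lower. The part of these shifts in the results below was not tested.

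Summed over the 10 genes, the libraries labelled knockout held 2061 and 1687 counts, and the control libraries held 12 and 12. The sums were 79.5 ± 12.2 CPM in Ssrp1 KO and 0.517 ± 0.0382 CPM in control (SD, n = 2 each). The ratio of the scaled sums was 154.1, with an exact 95% interval of 103.4 to 240.8 that covers counting error only. Of the 10 genes, 9 had both libraries labelled knockout above both controls; Gm21319 did not, being at 0 in 1 of them. Among all genes with a count, 27.2% showed that order. In bulk RNA, more cells in the 2-cell-like state and more RNA per cell cannot be told apart.

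8 of the 10 genes passed the filter on low counts, and all 8 were called higher, where 16.5% of the 17482 genes tested were called higher. Nothing is read from this share, since the genes were chosen on this contrast. None of the 8 had more than 6 counts in a control library, below the filter's minimum count of 10. Their knockout counts alone therefore carried all 8 past the filter, and 5 of the 8 had at most 3 control counts. Gm4027 and Gm21319 did not pass.

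**Figure D2:**
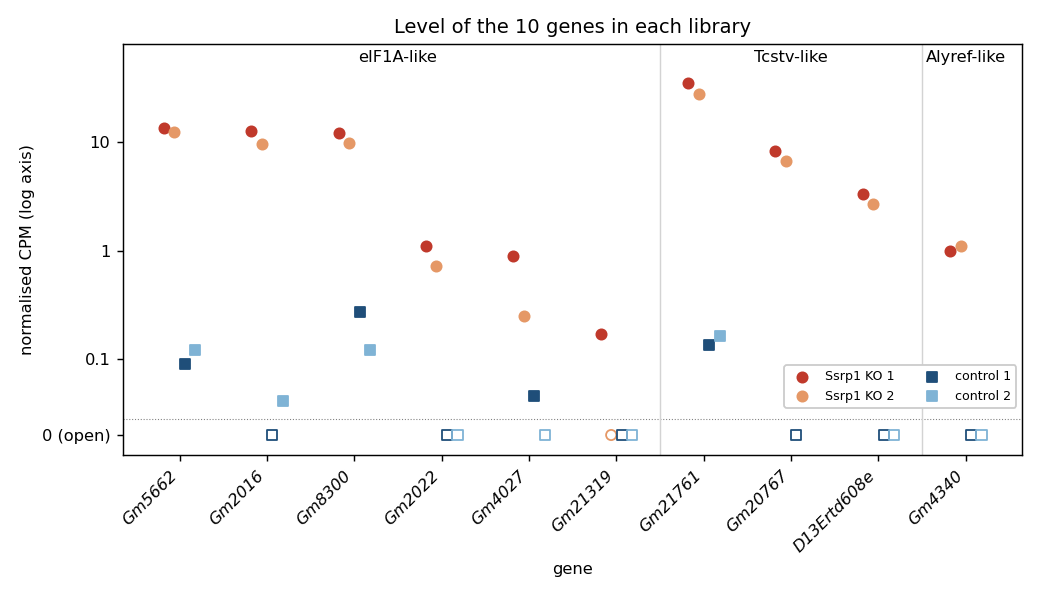
Normalised CPM (log axis) of each of the 10 genes in each library, grouped by family, with red and orange circles for Ssrp1 KO and blue squares for control; open symbols below the dotted line are counts of 0. Every filled Ssrp1 KO symbol lies above both controls of its gene, and 4 genes have no control count at all.

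Among the eIF1A-like genes, Gm5662 had 314 and 296 counts in the libraries labelled knockout, against 2 and 3 in control. That is 12.9 ± 0.703 CPM in Ssrp1 KO and 0.107 ± 0.0225 CPM in control (SD, n = 2 each), a ratio of 120.4 (counting interval 51.3 to 372.1). The groups did not overlap, and the libraries labelled knockout were close to each other.

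Gm2016, whose protein is the closest of the 6 to that of Gm5662, had 298 and 230 counts in the libraries labelled knockout and 0 and 1 in control. With a single control count its ratio of 521.0 has a counting interval of 93.1 to 20615, so it cannot be ranked against that of Gm5662. Gm8300 had 284 and 235 counts in the libraries labelled knockout and 6 and 3 in control, which is 11.0 ± 1.61 CPM against 0.197 ± 0.106 CPM (SD, n = 2 each). It held the most control counts of the 10 genes, and its ratio was 56.9 (29.7 to 125.1).

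The other 3 eIF1A-like genes were low. Gm2022 had 26 and 17 counts in the libraries labelled knockout and none in control, at least 14.1-fold higher against a floor of 3 counts over the control group. Gm4027 had 21 and 6 counts in the libraries labelled knockout and 1 and 0 in control, with a ratio of 26.6 (4.39 to 1091). Its libraries labelled knockout differed 3.56-fold in CPM, with Ssrp1 KO 1 the higher. Gm21319 had 4 and 0 counts in the libraries labelled knockout and none in control, and is the 1 gene of the 10 with no clear separation of the groups.

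Gm21761, a Tcstv-like gene, was the most abundant of the 10. It had 821 and 654 counts in the libraries labelled knockout and 3 and 4 in control, or 31.3 ± 5.40 CPM against 0.150 ± 0.0193 CPM (SD, n = 2 each), and its ratio was 207.9 (100.7 to 518.0). It alone made up 39.8% and 38.8% of the counts of the 10 genes in Ssrp1 KO 1 and 2. Gm20767 had 193 and 159 counts in the libraries labelled knockout and 0 and 1 in control, a ratio of 347.3 (61.9 to 13756). D13Ertd608e had 77 and 64 counts in the libraries labelled knockout and none in control, at least 46.4-fold higher. In all 3 the groups were apart.

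Gm4340, the Alyref-like gene, had 23 and 26 counts in the libraries labelled knockout and none in control, at least 16.1-fold higher. It was the only one of the 10 with more CPM in Ssrp1 KO 2 than in Ssrp1 KO 1, by 1.09 against 0.984 CPM. In the other 9 genes Ssrp1 KO 1 was the higher; over all genes tested, Ssrp1 KO 1 was the higher in 50.2%.

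Per kilobase of exon, mean levels in the libraries labelled knockout ran from 22.8 CPM per kb for Gm21761 to 0.0459 CPM per kb for Gm21319. Gm5662 followed with 7.03, Gm2016 with 6.35, Gm8300 with 5.88, Gm20767 with 5.23 and D13Ertd608e with 4.13 CPM per kb. From Gm5662 to Gm20767 neighbours in this order overlapped over their 2 libraries. Gm2016, for example, ranged from 5.47 to 7.22 CPM per kb and Gm8300 from 5.27 to 6.49. Gm20767, at 4.68 to 5.79, and D13Ertd608e, at 3.72 to 4.55, did not overlap. Gm2022 had 2.10, Gm4340 0.797 and Gm4027 0.311 CPM per kb in the libraries labelled knockout.

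How many reads can be told apart from those of the copies differs between the genes, and its part in this order was not tested. Neither the read length nor the counting rule for reads with several hits is stated in the labels. As a guide, windows of 100 bases in the longest transcript of each gene were searched in all GENCODE transcripts. Gm21319 had 1649 windows found in no other gene, 93.5% of its windows, and still only 4 counts in the libraries labelled knockout. Gm8300 had 1582 such windows and 519 counts. At the other end, Gm4340 had 64 such windows (5.52%) with 49 counts, and D13Ertd608e had 100 (16.5%) with 141 counts. Per 100 such windows the libraries labelled knockout held 76.6 counts for Gm4340, 84.1 for Gm5662, 89.6 for Gm2016, 141.0 for D13Ertd608e and 199.6 for Gm21761. Gm20767 had 47.2, Gm2022 38.4, Gm8300 32.8 and Gm4027 17.9. On this scale Gm4340, low per kilobase, stood beside Gm5662 and Gm2016, whereas Gm21319 stayed lowest with 0.243. A gene without such windows can still hold counts. Gm8332, a relative described below, had 0 windows and 348 counts in the libraries labelled knockout. The scale is therefore a rough guide, least of all for genes with few windows.

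**Figure D3:**
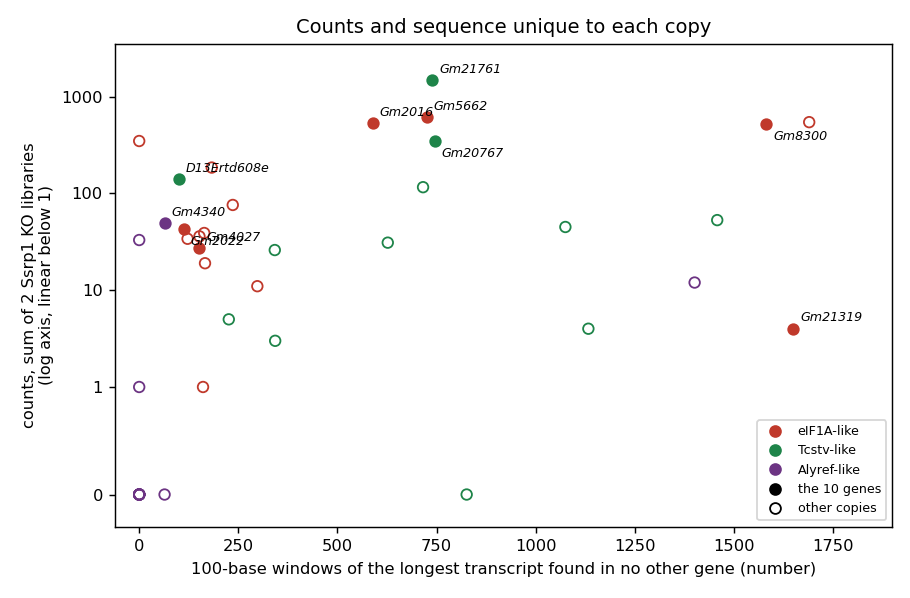
Counts summed over the 2 Ssrp1 KO libraries (log axis, linear below 1) against the number of 100-base windows of the longest transcript found in no other gene, for the 10 genes (filled) and the other copies of their families (open), coloured by family. Gm8300 and Gm21319 have like numbers of such windows and 519 and 4 counts.

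The families hold more copies than the 10 genes. 37 other genes had a protein related to one of the 10, of which 36 were in the table, and 4 of these are the paralogs Eif1a, Eif1ax, Alyref and Alyref2. The remaining 32 are called copies here. Copies were chosen by sequence and not by value, but they may share reads with the 10 genes, so they are no independent support. Of the 36 relatives, 15 passed the filter, and 12 were called higher and none lower by edgeR's quasi-likelihood test, against 16.5% higher and 17.2% lower of all genes tested. At an unadjusted p under 0.05, 0 of them were lower, and DESeq2 also called 12 higher and 0 lower. Their median log2 fold change was 7.05, or 3.68 with the 8 genes without a control count set at their bound, against 0.00 for all genes tested. 10 of the 15 had at most 3 control counts and so passed the filter through their knockout counts. Gm5039, with 1 and 4 control counts, passed in the same way. For these 10 and Gm5039 a call lower was hardly possible by either method. The rest of the 15 are the 4 paralogs, of which only Eif1a was called higher.

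On chromosome 12, the 16 eIF1A-like genes lie within 829.3 kb. The 10 copies together had 709 and 585 counts in the libraries labelled knockout and 2 and 5 in control, a ratio of 182.4 (88.3 to 454.6), next to 106.7 (65.5 to 187.2) for the 6 genes described here. Summed over all 16, so that reads moved among these 16 do not count, the ratio was 129.8 (86.3 to 205.0). Reads left unassigned, or counted to similar genes outside the 16, are not covered by this sum. Gm5039 led the copies with 294 and 251 counts in the libraries labelled knockout and 1 and 4 in control, 107.5-fold higher (45.8 to 332.5; adjusted p = 2.03e-11, edgeR's quasi-likelihood test). Gm5039 also begins with the start shown for Gm5662. Gm8332, whose protein is identical to that of Gm8300, had 184 and 164 counts in the libraries labelled knockout and 1 and 1 in control (adjusted p = 1.78e-10, edgeR's quasi-likelihood test), although it had 0 windows of its own. Gm2035 had 97 and 88 counts in the libraries labelled knockout and none in control, at least 60.8-fold higher (adjusted p = 3.18e-08, same test). BB287469, identical in protein to Gm4027, had 28 and 8 counts in the libraries labelled knockout and none in control, and so leaned to Ssrp1 KO 1 as Gm4027 did. In all 8 eIF1A-like relatives that were tested, Ssrp1 KO 1 was the higher of the libraries labelled knockout. The 8 include the paralogs Eif1a and Eif1ax, which lie on chromosomes 18 and X, and the copies among them may share reads. Over all genes tested, Ssrp1 KO 1 was the higher in 50.2%.

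On chromosome 13, the 12 Tcstv-like genes lie within 490.2 kb. The 9 copies had 129 and 154 counts in the libraries labelled knockout and 2 and 0 in control. Gm21818 led them with 54 and 62 counts in the libraries labelled knockout and 2 and 0 in control, 57.2-fold higher (15.5 to 478.1; adjusted p = 2.28e-06, edgeR's quasi-likelihood test). All 4 Tcstv-like copies that were tested were called higher, against 16.5% of all genes tested. All 4 had at most 3 control counts and so passed the filter through their knockout counts, which leaves another outcome hardly possible. Gm21762, with a protein identical to that of D13Ertd608e, had 2 and 3 counts in the libraries labelled knockout and none in control, far below the 77 and 64 of D13Ertd608e. In 1 of the 4 tested copies Ssrp1 KO 1 was the higher, unlike the 3 Tcstv-like genes described here.

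The Alyref-like copies were nearly silent in the table. Of 13, 3 had a count, with 29 and 17 counts in the libraries labelled knockout and none in control. Gm21293 made up 19 and 14 of these counts. Of all 32 copies, 12 had no window of their own and 9 of those were at 0 in every library, whereas 18 of the 20 copies with such windows had a count. A count of 0 in a copy without sequence of its own therefore cannot be told apart from reads left unassigned.

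**Figure D4:**
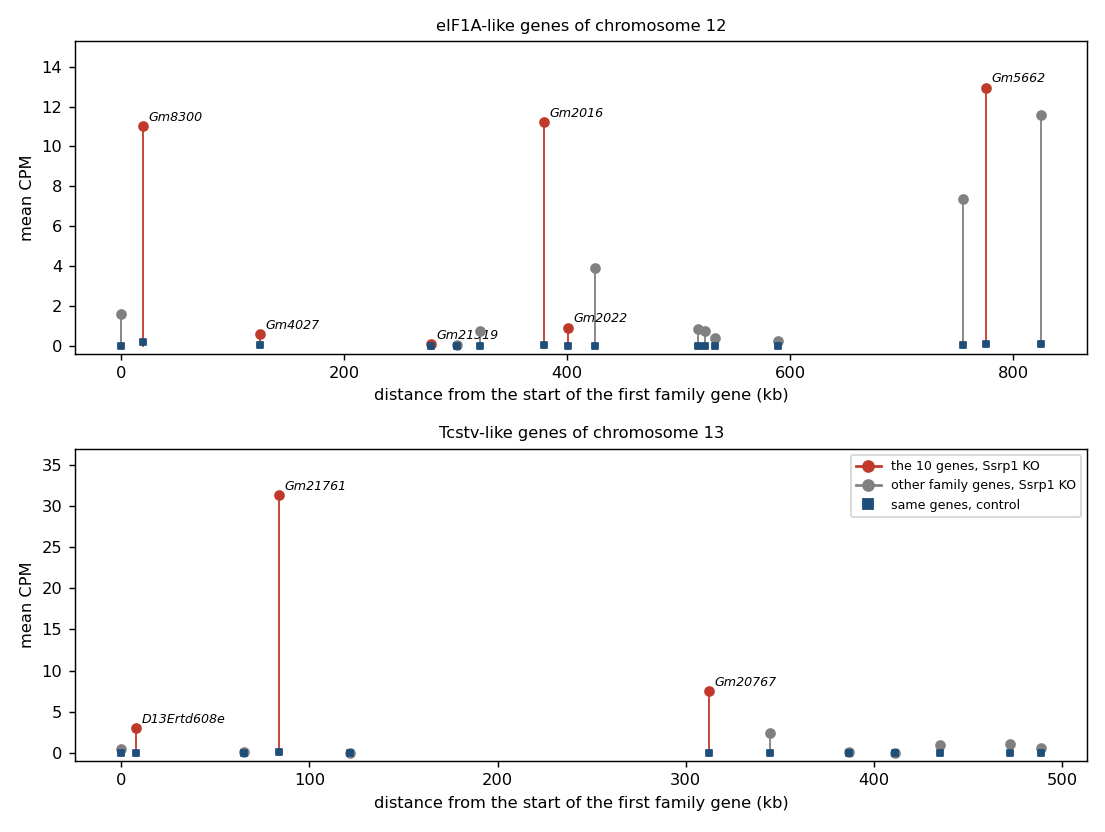
Mean CPM of the eIF1A-like genes of chromosome 12 (top) and the Tcstv-like genes of chromosome 13 (bottom) by distance in kb from the start of the first family gene, with circles for Ssrp1 KO (red for the 10 genes, grey for other family genes) and squares for control. High and low genes are interspersed along both clusters, and all control squares lie near 0.

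Of the 4 paralogs, 1 passed the test. Eif1a had 256.2 and 226.2 CPM in the libraries labelled knockout and 190.0 and 194.8 CPM in control, with a log2 fold change of 0.33 ± 0.07 (SE; adjusted p = 0.000931, edgeR's quasi-likelihood test). Its groups did not overlap. Whether reads of the copies were counted there was not tested. Eif1ax had 140.6 and 130.1 CPM against 128.8 and 130.9 CPM in control, a log2 fold change of 0.06 (adjusted p = 0.531, edgeR), and its groups overlapped. Alyref had 40.7 and 45.9 CPM against 40.5 and 41.6 CPM in control (log2 fold change 0.08, adjusted p = 0.545, edgeR), and Alyref2 0.513 and 1.30 CPM against 0.408 and 1.06 CPM (log2 fold change 0.29, adjusted p = 0.728, edgeR). These 4 were named after their values were seen.

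Other genes of the 2-cell program, 4 of which are also among the relatives above, were set beside the 10. Of 37 such genes, 22 passed the filter, and edgeR called 22 higher and none lower, against 16.5% higher and 17.2% lower of all genes tested. At an unadjusted p under 0.05, 0 were lower, and DESeq2 gave the same counts of calls. Their median log2 fold change was 6.80, or 5.77 with the 6 genes without a control count at their bound. 16 of the 22 had at most 3 control counts, which leaves a call lower hardly possible for those 16. Zscan4c, with 5 and 4 control counts, also passed the filter through its knockout counts. The list was also drawn up with results of these data known. Zscan4c, a zinc finger gene tied to telomere maintenance in embryonic stem cells, had 404 and 487 counts in the libraries labelled knockout and 5 and 4 in control (adjusted p = 4.15e-13, edgeR's quasi-likelihood test). Zscan4a had 275 and 228 counts against 1 and 1 in control, and Zscan4e 203 and 253 against 1 and 0. Usp17le, a deubiquitinase gene of another tandem family, had 352 and 444 counts against 1 and 2 in control. Of these 4, Zscan4c, Zscan4e and Usp17le were higher in Ssrp1 KO 2, and Zscan4a in Ssrp1 KO 1. Over the 22, Ssrp1 KO 1 was the higher in 12. Whether the order of the 2 libraries differs between this list and the 10 genes was not tested.

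The neighbourhood of the 10 genes held 136 other genes of the table within 200 kb. Of these, 23 passed the filter, and edgeR called 17 higher and none lower, against 16.5% higher and 17.2% lower of all genes tested. At an unadjusted p under 0.05, 1 was lower, and DESeq2 also called 17 higher and none lower. 14 of the 23 had at most 3 control counts, which leaves a call lower hardly possible for those 14. Gm5039, with 1 and 4 control counts, also passed the filter through its knockout counts. Many of the neighbours are relatives. Of the 12 tested neighbours that are not, 6 were called higher, and the median log2 fold change of the 12 was 0.19. 4 of the 6 are annotated pseudogenes, and none of the 4 had more than 3 control counts. Gm1995 had 111 and 129 counts in the libraries labelled knockout and none in control, at least 78.9-fold higher (adjusted p = 5.26e-09, edgeR's quasi-likelihood test). Gm18983 had 54 and 95 counts in the libraries labelled knockout and 0 and 3 in control, and Gm7104 had 26 and 23 against none in control. Gm48388, with 12 and 14 counts against none in control, is 99.5% identical to Gm4027 over its 213 bases. Gm1995, Gm18983 and Gm7104 had no such match on the same strand to the longest transcripts of the 10 genes. The opposite strand was not searched. The remaining 2 neighbours rose by less: Zfp131, a zinc finger gene, had a log2 fold change of 0.40 (adjusted p = 0.00107, edgeR), and Hmgcs1, an enzyme of cholesterol synthesis, one of 0.25 (adjusted p = 0.0163, edgeR). Without control 1, Hmgcs1 had 0.10 and did not pass the threshold (adjusted p = 0.533, edgeR). Gm18983, Gm7104, Gm48388, Zfp131 and Hmgcs1 were named after their values were seen.

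The start shared by Gm4340, Gm21761 and Gm20767 was then sought in all GENCODE transcripts, allowing 3 mismatches and a position within the first 30 bases. It was found in 73 genes, of which 69 were in the table, and 60 of these are neither among the 10 nor related to them in protein. This list was defined after the values were seen. 43 of the 60 are not protein-coding. Of 32 that passed the filter, 20 were called higher and 2 lower by edgeR's quasi-likelihood test, against 16.5% higher and 17.2% lower of all genes tested. The median log2 fold change was 3.10, or 2.37 with the 10 genes without a control count at their bound. 16 of the 32 had at most 3 control counts and so passed the filter through their knockout counts.

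The genes were also split by how many of their transcripts carry the start; the difference between the 2 sets was not tested. Of all genes tested, 16.5% were called higher and 17.2% lower. Where every annotated transcript had it, 13 of 16 tested genes were called higher and none lower (0 also at an unadjusted p under 0.05). 13 of these 16 had at most 3 control counts and so passed the filter through their knockout counts, which leaves a call lower hardly possible. The other tested genes, named after their values were seen, had smaller ratios. Gm41409 had a ratio of 2.03 with 18 control counts, Gm44660 2.06 with 33 and Platr31 1.20 with 23. The 40 genes in the table with the start in every transcript summed to 924 counts in the libraries labelled knockout and 85 in control. Most of these control counts came from Gm41409, Gm44660 and Platr31. Where only some transcripts had it, 7 of 16 were called higher and 2 lower (12.5%, near the share of all genes). The median log2 fold change of these 16 was 0.20, and 3 of the 16 had at most 3 control counts. Gm48754 had 56 and 44 counts in the libraries labelled knockout and none in control, at least 32.9-fold higher (adjusted p = 1.75e-06, edgeR's quasi-likelihood test). Gm47404 had 39 and 31 counts against none in control, and Gm14742 had 25 and 27 against none. A530040E14Rik, which has the start in 1 of 6 transcripts, had 38 and 37 counts against 0 and 1 in control. These are noncoding genes, Gm48754 and A530040E14Rik being annotated as antisense; the strand setting of the counting is not given, so their reads cannot be told apart from those of a gene on the other strand. The 2 lower genes were Tbc1d23 with a log2 fold change of -0.37 (adjusted p = 0.000421, edgeR) and Arsk with -0.54 (adjusted p = 0.0395, edgeR), both with the start in 1 of several transcripts. The Arsk call was lost without control 2 (adjusted p = 0.207, edgeR) and without Ssrp1 KO 1 (adjusted p = 0.124, edgeR).

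**Figure D5:**
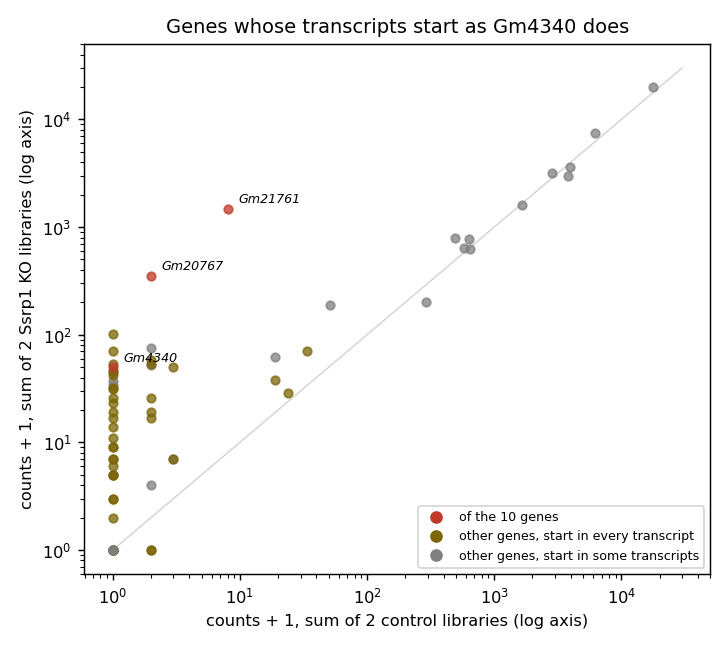
Counts + 1 summed over the 2 Ssrp1 KO libraries (y, log axis) against the 2 control libraries (x, log axis) for the 69 genes with the start of Gm4340; red marks Gm4340, Gm21761 and Gm20767, brown other genes with the start in every transcript and grey other genes with it in some. Most brown points lie at the left edge, above the grey line of equal counts, and most grey points with many counts lie along that line.

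Of the 10 genes, 4 (Gm4340, Gm4027, Gm21319 and Gm21761) were in RefSeq's promoter table for GRCm38.p6. The 250 bases before the RefSeq start of Gm4340 (10:104193792-104194041, plus strand) are shown because this window is shared with genes outside its family; the capitals mark TATAA, the core of a TATA box:

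Gm4340: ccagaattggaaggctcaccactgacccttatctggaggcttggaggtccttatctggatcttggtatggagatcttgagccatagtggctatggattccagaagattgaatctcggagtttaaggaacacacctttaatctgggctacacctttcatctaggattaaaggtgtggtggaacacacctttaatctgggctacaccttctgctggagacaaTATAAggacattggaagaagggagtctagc

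TATAA was sought on both strands of windows of 300 bases, from 250 before to 50 after the start. It was found in 2 of the 4 windows, those of Gm4340 and Gm21761, and in 24.9% of all 32851 promoter windows. The window of Gm4340 matched those of 18 genes in the table that are neither among the 10 nor their relatives, over at least 150 aligned bases, at 67.6% identity (Nxf7) to 96.6% identity (Pemt). This list too was defined after the values were seen. 10 of the 18 passed the filter, and 8 were called higher and none lower by edgeR (0 lower at an unadjusted p under 0.05) and by DESeq2, against 16.5% higher and 17.2% lower of all genes tested. 5 of the 10 had at most 3 control counts and so passed the filter through their knockout counts, which leaves a call lower hardly possible for those 5. The median log2 fold change was 2.92, or 2.12 with the 2 genes without a control count at their bound. Eif4a3l1, related to an RNA helicase of the exon junction complex, had 262 and 216 counts in the libraries labelled knockout and 1 and 1 in control (adjusted p = 2.06e-11, edgeR's quasi-likelihood test), with a window 80.7% identical to that of Gm4340. Gm35974, whose window is 94.9% identical to that of Gm4340, had 22 and 23 counts against none in control. Sp110, a nuclear body gene that is also on the 2-cell list, had 42 and 40 counts against 1 and 1 in control. Arih2, a widely expressed ubiquitin ligase gene, had 146.3 and 155.9 CPM against 101.4 and 97.5 CPM in control, a log2 fold change of 0.60. A shared sequence is a description of these windows; what starts transcription there was not measured.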

How the data were processed

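The authors deposited whole-number counts per gene symbol for 4 libraries of ribosomal-RNA-depleted total RNA, without normalization. Per the submitters' processing notes, cutadapt, HISAT2, featureCounts and mm10 were used; versions, annotation, strand setting and handling of reads with several hits are not given in these sources. Columns spelled OK were mapped to the KO titles; 0 columns were left unmapped. Total counts were 22855451 and 23030224 in Ssrp1 KO and 22611434 and 25344190 in control.

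Genes were filtered (filterByExpr, minimum count 10, total 15), scaled by TMM and tested with edgeR 4.0.16 (R 4.3.3; quasi-likelihood F test, 2-sided, Benjamini-Hochberg over 17482 genes, threshold 0.05, 2 residual degrees of freedom, no covariate); DESeq2 1.42.0 was an alternative. The test was also run on counts simulated from the means and dispersions of this fit, and the outcome is not given here. Ratios are of scaled sums with exact 95% intervals, or bounds against 3 counts over the group where control had none; intervals and floors cover counting error only. Replicates differed by more than sampling noise (chi-square per degree of freedom 11.5 in Ssrp1 KO, 3.37 in control).

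Relatives are genes whose protein, translated from GENCODE M21 because the planned RefSeq proteins were not used here, matched by blastp (BLAST 2.17.0) at E at most 1e-10, 30% identity and 50% coverage. Named genes are the 10 genes, Ssrp1, Supt16, the 4 smallest adjusted p per list and the 3 closest relatives; others are said to be chosen later. Supt16 had a log2 fold change of 0.19 (adjusted p = 0.018, edgeR). The members and lists were chosen with earlier results of these data known. Alternatives were other scalings, filters, DESeq2, a replicate block, leaving out each library, and other rules for relatives and neighbours.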

Additional observations from a re-analysis of the deposited data

How the results depend on the processing

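The summed log2 ratio of the 10 genes was 7.27 and stayed between 7.10 and 7.41 over 6 alternatives (2 other scalings and 4 left-out libraries). No list turned direction. A filter at 5 CPM in 2 libraries leaves fewer genes and gave 2332 genes higher and 2426 lower. Calls higher were then 10 for the 2-cell list, 3 for relatives, 4 for neighbours, 3 for the start-sequence genes and 4 for the promoter matches. Neighbours called higher were 10 within 50 kb and 19 within 500 kb, where 3 (Nnt, 4833420G17Rik and Gstz1) were called lower. The numbers tested under these alternatives are not given here, so no share is read from these calls. Leaving out 1 library gave 1915 (without control 1) to 2995 genes called higher. Library size alone moved the median of all genes by 0.08 and gave 3887 genes higher and 2215 lower, against 2877 and 3000; DESeq2 gave 2225 and 2198. Ssrp1 passed the threshold with library size alone (0.19, adjusted p = 0.0308, edgeR), and left-out libraries gave 0.041 to 0.16, past the threshold at 0.16 without Ssrp1 KO 1 (adjusted p = 0.0108, edgeR). Supt16 missed it without either control (adjusted p = 0.235 and 0.139, edgeR), and Hmgcs1 without control 1 (adjusted p = 0.533, edgeR); the cause was not tested. Signs turned for Alyref without Ssrp1 KO 2 (-0.014, with up to 0.16 over the left-out libraries), and for Alyref2 without control 1 (-0.23) and without Ssrp1 KO 2 (-0.53), within a range of -0.53 to 1.14 over the left-out libraries. Arsk missed the threshold with library size alone (adjusted p = 0.0808, edgeR) and with DESeq2 (adjusted p = 0.145), which left 1 start-sequence gene called lower. Same-numbered libraries showed no common shift over genes (correlation of same-numbered deviations 0.008), which cannot show whether the samples were paired. With a replicate block, 3072 genes were called higher and 3216 lower, and Ssrp1 had 0.11 (adjusted p = 0.23, edgeR). The 2-cell list, relatives and neighbours then had 22, 12 and 17 calls higher. Depth limits the control levels: each of the 10 genes had 0 to 9 counts over both control libraries.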
